A study of Mus musculus with 9 samples.

Results

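The solute carriers are membrane proteins that move nutrients, ions, metals and metabolites across the plasma membrane and across the membranes of mitochondria, lysosomes and the Golgi apparatus. The 120 genes described here were chosen by symbol and by level. Each symbol begins with Slc, a family number, the letter a and a member number, and each gene reached a mean of 10 CPM (counts per 1000000 gene counts of the library) in at least 1 treatment group. Of 24411 gene rows, 344 symbols had that form. Of these, 14 carriers, among them Slc7a11, Slc7a2, Slc2a1 and Slc40a1, were left out of the set by name, and 210 were below 10 CPM in every group. The level that admitted a gene is therefore not a result. The 3 members just inside were Slc46a3, Slc25a38 and Slc37a4, at 10.62, 10.97 and 11.36 CPM in their highest group. The 3 carriers just outside were Slc2a9, Slc25a13 and Slc36a4, at 9.98, 9.90 and 9.69 CPM. All 3 groups reached the minimum for 100 members, 2 groups for 10 members and 1 group for 10 members.

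The cells were primary microglia, the resident macrophages of the brain, shaken off mixed glial cultures that had been grown from whole brains of 3-day-old pups of the outbred ICR mouse stock. They were treated for 4 h with 1 µM R848 (resiquimod, a small-molecule agonist of the endosomal RNA receptor TLR7 in mice), with 100 U/ml recombinant mouse IFN-α (a type I interferon), or with both. Each of the 3 groups had 3 libraries, the labels name no genetic change in the cells, and they do not say whether the 3 came from separate cultures or from pooled animals. The p-values therefore cover only how far libraries of a group spread, and that spread could be technical. No untreated library was analysed here, so every difference below is between treatments and none is a change from rest.

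Gene counts per library ran from 2505941 to 6005578, and R848+IFN-α replicate 3 was the deepest. The microglial label was met by most of its 12 markers, with C1qa at 439 to 676 CPM as group means. Tmem119 was near the detection limit, at 0.391 to 3.79 CPM, and P2ry12 ran from 2.40 CPM with R848 to 40.6 CPM with IFN-α. The summed microglial markers were 2882 to 3448 CPM with R848, 4805 to 5061 with IFN-α and 3313 to 3740 with R848+IFN-α. Of the 12, 1 was called higher and 7 lower with R848 than with IFN-α. With R848+IFN-α, 5 were higher and 4 lower than with R848, and 1 higher and 8 lower than with IFN-α. The 11 astrocyte markers were also present, and none was at 0. The highest were Gfap, with group means of 746 to 1411 CPM, and Aqp4, with 278 to 1043 CPM. All 11 summed to 1482 to 1737 CPM with R848, 1183 to 1490 with IFN-α and 2414 to 3474 with R848+IFN-α. Aldh1l1, Gja1, Sox9 and Fgfr3 had their highest mean with IFN-α, and the others with R848+IFN-α. Of the 11, 9 were called higher and none lower with R848+IFN-α than with R848. Against IFN-α, 2 were higher and 4 lower with R848, and 6 higher and none lower with R848+IFN-α. Markers of oligodendrocytes summed to 425.7 to 547.3 CPM over all libraries, with none of 8 tested called in R848+IFN-α against R848, and those of neurons to 138.3 to 178.2 CPM, with 1 of 4 called there. Fibroblast and vessel markers summed to 116.5 to 200.9 CPM, with 4 of 8 called higher there. The backgrounds over all genes tested were 19.2% higher and 16.7% lower in R848+IFN-α against R848. They were 18.4% and 19.0% in R848 against IFN-α, and 18.5% and 14.7% in R848+IFN-α against IFN-α. In such a mixed bulk sample, fewer cells of a type and less RNA per cell cannot be told apart, and the part of other cells in the members' values was not tested.

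As background, carriers are grouped by what they move. ZIP proteins (Slc39) bring zinc into the cytosol, ZnT proteins (Slc30) take it out or into vesicles, and Slc31 proteins carry copper. Slc25 proteins sit in the inner mitochondrial membrane and exchange metabolites between the matrix and the cytosol. Slc7 light chains pair with the heavy chain Slc3a2 to exchange amino acids at the cell surface. Slc15a3, Slc15a4 and Slc29a3 lie in endolysosomes, the compartment in which TLR7 meets RNA, and Slc38a9 reports lysosomal arginine to the growth regulator mTORC1. In macrophages, such carriers are known for iron and haem recycling, for the withholding of metals from microbes and for the fuel supply of activated cells.

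Because the minimum was applied to the highest of 3 group means, a gene whose mean over all 9 libraries was lower could enter only if its groups differed. Calls were therefore counted over the 112 members whose 9-library mean was 10 CPM or more, and the other 8 are given by level, with no test. Of the 112, Slc10a3, Slc17a5 and Slc25a33 reached 10 CPM in 1 group only, and a call on any of them restates in part the level that admitted it. A gene was called where the adjusted p of edgeR's quasi-likelihood test was under 0.05 after Benjamini-Hochberg adjustment over all 11002 genes tested. All CPM values other than those that chose the members are scaled by edgeR's TMM factors, which make libraries of different composition comparable, and are given as replicates 1, 2 and 3 or as mean ± SD over 3 libraries. Fold changes are log2 values from the fit with their SE.

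Among the 112 members, 80 (71.4%) differed among the 3 groups. The background was 50.3% of all genes tested and 58.8% of the 7864 genes whose own mean was 10 CPM or more, which is the fairer background for members chosen by level. With R848 against IFN-α, 41 members (36.6%) were higher, where the backgrounds were 18.4% and 22.4%, and 21 (18.8%) were lower, where they were 19.0% and 22.6%. The share of members higher with R848 was thus above the background, while the share lower was near it. With R848+IFN-α against R848, 22 members (19.6%) were higher, beside 19.2% and 23.4%, and 30 (26.8%) were lower, beside 16.7% and 19.2%. With R848+IFN-α against IFN-α, 35 members (31.2%) were higher, beside 18.5% and 22.8%, and 21 (18.8%) were lower, beside 14.7% and 16.6%. The median log2 fold change of the members was 0.15, -0.10 and 0.04 in these 3 comparisons, beside 0.02, -0.03 and -0.01 over all genes tested.

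**Figure D1:**
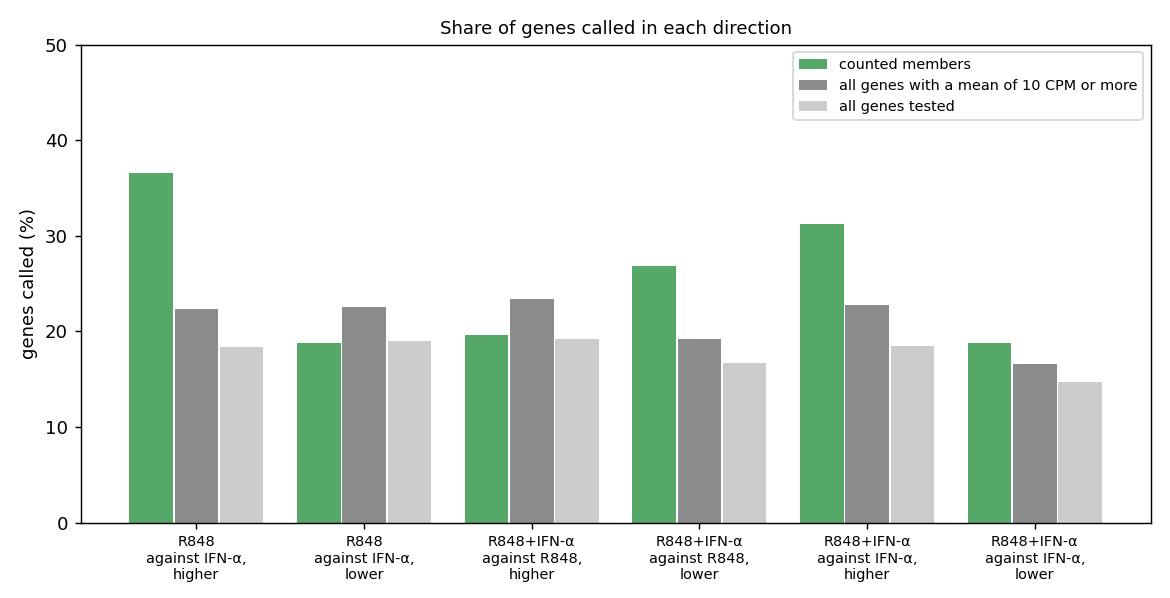
Share of genes called in each direction (percent, bars from 0) for the 112 counted members, for all genes with a 9-library mean of 10 CPM or more, and for all genes tested. The largest gap is for genes higher with R848 than with IFN-α, at 36.6% of members against 22.4% and 18.4%, and the share of members lower with R848+IFN-α than with R848 is 26.8% against 19.2% and 16.7%.

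The direction counts against the combined treatment depended on the scaling. TMM factors were 0.832 to 0.892 in the R848+IFN-α libraries and 0.954 to 1.17 in the others. Scaling by library totals alone moved the median of all genes by 0.08, -0.39 and -0.31 in the 3 comparisons, and upper-quartile factors moved it by 0.05, -0.13 and -0.08. Of the members called, 66.1%, 42.3% and 62.5% were higher with TMM factors in the order above, 68.8%, 29.2% and 54.7% with upper-quartile factors, and 68.9%, 14.5% and 33.9% with library totals alone. With library totals alone, 11 members were higher and 65 lower in R848+IFN-α against R848, and 22 were higher and 43 lower against IFN-α. For R848 against IFN-α, the higher share of the members' calls ran from 64.8% to 68.9% over these scalings and those of the closing section, beside 46.9% to 55.6% for all genes. The comparisons share libraries, so their counts are not independent of each other. Of the 336 values (112 members in 3 comparisons), 170 were called, and 52 of these calls ended under at least 1 of 19 alternatives. Of the 166 values not called, 82 were called under at least 1 alternative, so "did not pass" below refers to the fit with TMM factors.

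The counts by role and by list below are to be read against these backgrounds, which were 58.8% for any difference and 16.6% to 23.4% for 1 direction of 1 comparison among genes with a mean of 10 CPM or more. Over all genes tested, 1 direction gave 14.7% to 19.2%. No role or list was tested against them.

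**Figure D2:**
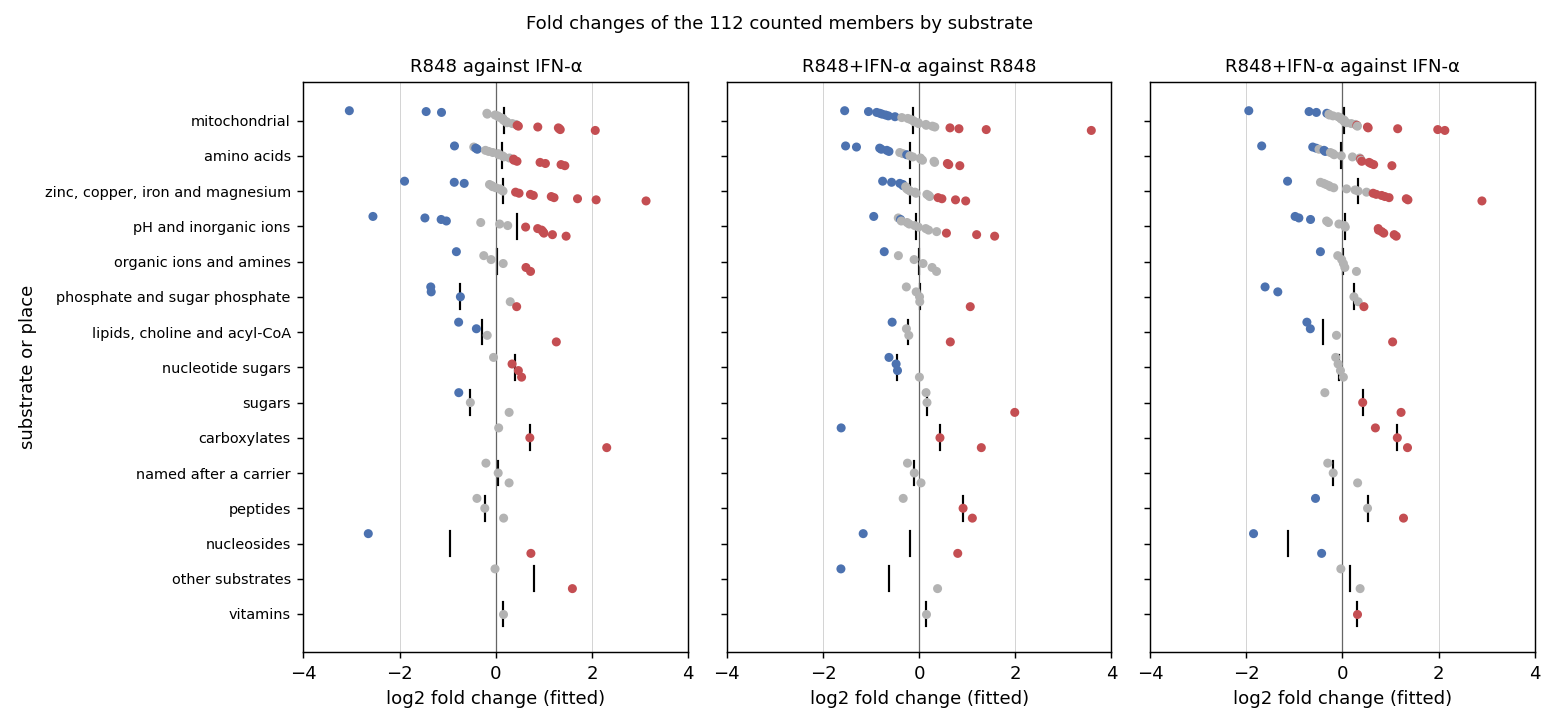
Fitted log2 fold changes of the 112 counted members in the 3 comparisons, grouped by what they carry or where they lie. Each point is a gene, red where called higher, blue where called lower and grey otherwise, and the black bar is the median of its row. The farthest points are Slc39a14 and Slc25a22 in the left panel and Slc25a22 in the middle panel.

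Among the metal carriers, the largest rises in R848 against IFN-α were those of Slc39a14 (log2 3.12), Slc41a2 (2.09) and Slc31a2 (1.70). Of 19 members, all counted, 14 (73.7%) differed among the groups, beside 58.8%. Against IFN-α, 9 were higher and 3 lower with R848, and 8 were higher and 1 lower with R848+IFN-α. Against R848, 4 were higher and 5 lower with R848+IFN-α. Their median log2 fold changes were 0.15, -0.18 and 0.33 for R848 against IFN-α, R848+IFN-α against R848 and R848+IFN-α against IFN-α.

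Slc39a14 stood at 61.9, 52.0 and 56.0 CPM with R848, 6.94, 7.93 and 4.75 with IFN-α and 47.2, 53.7 and 45.8 with R848+IFN-α. Slc39a14 (ZIP14), at chr14:70303469-70351425, imports zinc, manganese and iron, and its IFN-α libraries all lay below the 6 others. It was higher with R848 than with IFN-α (log2 fold change 3.12 ± 0.19 SE, adjusted p = 6.72e-15) and higher with R848+IFN-α than with IFN-α (log2 fold change 2.90 ± 0.19 SE, adjusted p = 1.40e-13). The 2 groups that received R848 overlapped (log2 fold change -0.22 ± 0.13 SE, adjusted p = 0.201). Slc39a1 (ZIP1), a plasma membrane zinc importer, was also lowest with IFN-α. Slc39a1 stood at 273, 277 and 275 CPM with R848, 164, 173 and 164 with IFN-α and 309, 305 and 310.2 with R848+IFN-α. Its fold changes against IFN-α were 0.72 ± 0.09 with R848 and 0.88 ± 0.09 with R848+IFN-α, and its IFN-α libraries lay below the 6 others. Slc39a13, an intracellular ZIP protein, had group means of 20.3, 8.71 and 13.9 CPM in the order R848, IFN-α, combination, and was called in all 3 comparisons. Its call for R848+IFN-α against IFN-α was lost under 9 of 19 alternatives (adjusted p up to 0.28) and that against R848 under 4 of 19 alternatives (adjusted p up to 0.242). Slc39a11 and Slc39a8 went the other way, with means of 17.1, 31.1 and 23.5 CPM and 9.72, 15.4 and 11.5 CPM, both lower in R848 against IFN-α (-0.86 ± 0.17 and -0.66 ± 0.22). The call of Slc39a8 was lost under 3 of 19 alternatives (adjusted p up to 0.114), and that of Slc39a11 for R848+IFN-α against R848 under 6 of 19 alternatives (adjusted p up to 0.72). Slc39a6 was higher with R848 than with IFN-α (0.41 ± 0.14), a call lost without IFN-α replicate 1 (adjusted p = 0.124) and with DESeq2 (adjusted p = 0.0666). Slc39a3, Slc39a9 and Slc39a10 did not pass the test in any comparison.

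Of the zinc exporters, Slc30a1 (ZnT1), which takes zinc out across the plasma membrane, had its highest level with IFN-α alone. Slc30a1 stood at 12.4, 10.4 and 14.4 CPM with R848, 59.7, 41.4 and 38.9 with IFN-α and 17.8, 22.8 and 22.2 with R848+IFN-α. The 3 groups did not overlap. Slc30a1 was lower with R848 than with IFN-α (log2 fold change -1.90 ± 0.19 SE, adjusted p = 6.91e-10) and lower with R848+IFN-α than with IFN-α (log2 fold change -1.14 ± 0.17 SE, adjusted p = 3.98e-06). Against R848 it was higher with R848+IFN-α (log2 fold change 0.76 ± 0.20 SE, adjusted p = 0.00392), a call lost on library totals alone (adjusted p = 0.122). Slc30a4 (ZnT4), which loads zinc into vesicles, had another pattern. Slc30a4 stood at 30.8, 40.6 and 46.0 CPM with R848, 38.9, 39.6 and 38.6 with IFN-α and 75.5, 73.9 and 79.7 with R848+IFN-α. Its single-agent groups overlapped and every R848+IFN-α library was above them, with log2 fold changes of 0.97 ± 0.13 against R848 and 0.97 ± 0.14 against IFN-α. Slc30a6 was higher with R848 than with IFN-α (0.78 ± 0.20), and with R848+IFN-α against R848 Slc30a7 was higher (0.39 ± 0.11) and Slc30a5 lower (-0.40 ± 0.15). These 2 calls were lost under 2 of 19 alternatives (adjusted p up to 0.99) and 4 of 19 alternatives (adjusted p up to 0.165). Slc30a9 did not pass the test in any comparison.

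The promoter of Slc30a1 is shown because the metal response element, the site of the zinc-sensing factor MTF1, is a textbook feature of this gene. RefSeq promoters on GRCm38.p6, from 250 bases before to 50 bases after a transcript start, were matched by symbol for 94 of the 120 members (127 promoters). The search was for TGCACNC or TGCGCNC, the core of the metal response element, on both strands. It was present in 25.7% of all 32851 promoters and in 49 of the members' 127 (38.6%). In the promoter of Slc30a1 at chr1:191906531-191906830, plus strand, the 2 matches lie at bases -43 to -37 and 31 to 37 relative to the start and are in capitals, as they read on the gene's strand. A match is a description of the letters and not evidence of binding.
Slc30a1: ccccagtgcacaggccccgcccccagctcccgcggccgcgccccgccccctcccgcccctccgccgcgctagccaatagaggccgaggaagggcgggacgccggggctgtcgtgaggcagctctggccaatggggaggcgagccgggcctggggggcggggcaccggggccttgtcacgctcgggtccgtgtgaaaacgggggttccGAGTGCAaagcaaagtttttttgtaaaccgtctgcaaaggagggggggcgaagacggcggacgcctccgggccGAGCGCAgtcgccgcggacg

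A list of 4 zinc response genes, the zinc-sensing factor Mtf1 and the metallothioneins Mt1, Mt2 and Mt3, is given beside these carriers. With TMM factors, all 4 listed zinc response genes were higher with R848+IFN-α than with IFN-α, 2 of 4 were higher with R848 than with IFN-α, and 2 of 4 were higher with R848+IFN-α than with R848, beside 18.5%, 18.4% and 19.2% of all genes tested. Mt2, a metallothionein that binds zinc and copper, had means of 98.2 CPM with R848, 32.0 CPM with IFN-α and 164.5 CPM with R848+IFN-α.

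Both copper carriers were highest with R848 and lowest with IFN-α. Slc31a1 stood at 358, 366 and 372 CPM with R848, 174, 155 and 164 with IFN-α and 292, 285 and 291 with R848+IFN-α. Slc31a1 (CTR1), the high-affinity copper importer, had no overlap between any 2 groups and was higher with R848 than with IFN-α (log2 fold change 1.15 ± 0.09 SE, adjusted p = 1.61e-12). Slc31a2 stood at 202, 189.6 and 189.8 CPM with R848, 66.3, 56.2 and 56.7 with IFN-α and 148, 157 and 155 with R848+IFN-α. Slc31a2 (CTR2), its relative in endosomes and lysosomes, showed the same order with no overlap (log2 fold change 1.70 ± 0.10 SE, adjusted p = 9.04e-15). Against R848, both were lower with R848+IFN-α (-0.34 ± 0.08 and -0.34 ± 0.09). Per kilobase of exon, Slc39a1, Slc31a2 and Slc31a1 held ranks 5, 6 and 7 among the 120 members, at 130.3, 95.3 and 85.4 CPM per kb in their highest group.

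Among the magnesium carriers, Slc41a2 had the larger range. Slc41a2 stood at 33.4, 33.4 and 30.7 CPM with R848, 6.17, 8.65 and 7.91 with IFN-α and 18.2, 21.5 and 18.4 with R848+IFN-α. No 2 groups overlapped, and the log2 fold changes were 2.09 ± 0.19 for R848 against IFN-α, 1.33 ± 0.21 for R848+IFN-α against IFN-α and -0.76 ± 0.16 for R848+IFN-α against R848. Slc41a1 had means of 42.9, 30.8 and 50.2 CPM and was higher in both groups with R848 than with IFN-α (0.48 ± 0.14 and 0.70 ± 0.14). The former call was lost without R848 replicate 1 (adjusted p = 0.0556) and without IFN-α replicate 3 (adjusted p = 0.0723).

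**Figure D3:**
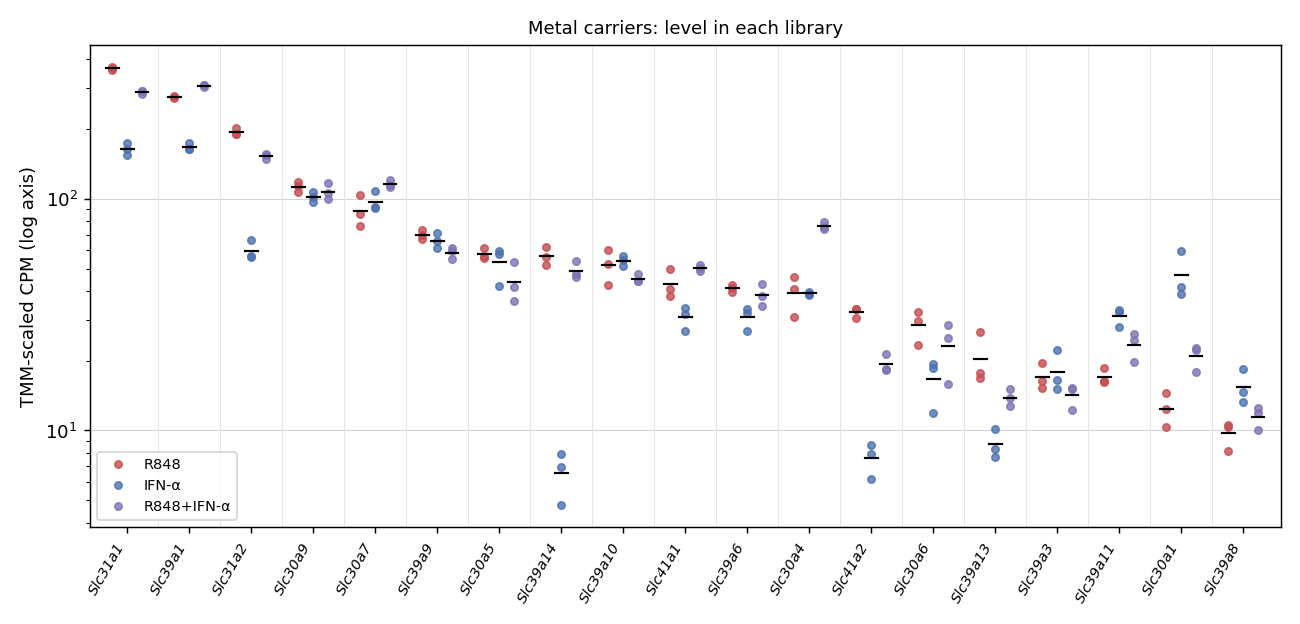
Level of each of the 19 metal carriers in each library (TMM-scaled CPM, log axis), with black bars for group means of 3 libraries. The IFN-α points of Slc39a14, Slc41a2, Slc31a1, Slc31a2 and Slc39a1 lie below those of both other groups, while those of Slc30a1 and Slc39a11 lie above. Levels of different genes are not comparable on this axis because it is not per length.

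The mitochondrial carriers of the Slc25 family were the most numerous. Of 26 members, 24 were counted and 13 (54.2%) differed among the groups, which is near the background of 58.8%. With R848 against IFN-α, 7 were higher and 3 lower. With R848+IFN-α against R848, 4 were higher and 8 lower, and against IFN-α, 6 were higher and 4 lower. Their median log2 fold changes were 0.17, -0.13 and 0.04.

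Slc25a22 stood at 10.7, 6.30 and 7.37 CPM with R848, 71.3, 68.8 and 63.0 with IFN-α and 101, 92.0 and 100.5 with R848+IFN-α. Slc25a22 (GC1), at chr7:141429744-141437892, brings glutamate into mitochondria. Its R848 libraries lay far below the 6 others, which is the largest separation of any counted member in R848+IFN-α against R848 (log2 fold change 3.58 ± 0.16 SE, adjusted p = 6.68e-18) and the largest fall in R848 against IFN-α (log2 fold change -3.05 ± 0.17 SE, adjusted p = 8.09e-16). It was also higher with R848+IFN-α than with IFN-α (log2 fold change 0.54 ± 0.12 SE, adjusted p = 0.000775), a call lost on library totals alone (adjusted p = 0.196). The carrier of aspartate and glutamate Slc25a12 was likewise lowest with R848. Slc25a12 stood at 23.9, 17.6 and 24.8 CPM with R848, 57.4, 57.7 and 66.2 with IFN-α and 56.9, 63.2 and 56.0 with R848+IFN-α. Its IFN-α and R848+IFN-α libraries overlapped (-0.05 ± 0.13), and its R848 libraries were lower than both (-1.45 ± 0.15 against IFN-α, with R848+IFN-α against R848 at 1.40 ± 0.14).

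Of the 3 RefSeq promoters of Slc25a22, 1 held the core of the interferon-stimulated response element, GAAANNGAA searched on both strands. It is shown because the gene was higher in both groups that received IFN-α than with R848 alone. That core was present in 8.56% of all promoters and in 5 of the members' 127 (3.94%), those of Slc25a22, Slc27a1, Slc38a9, Slc39a8 and Slc7a8. Of these 5, only Slc25a22 was both lower with R848 than with IFN-α and higher with R848+IFN-α than with R848. Other members called in the same directions, among them Slc25a12, Slc12a9, Slc29a3, Slc30a1 and Slc44a2, held no such core in their promoters. With no untreated library, a rise with IFN-α and a fall with R848 cannot be told apart. Whether the match bears on the level was not tested. The match, in capitals, lies at bases -79 to -71 of the promoter at chr7:141435326-141435625, minus strand, printed as the gene reads.
Slc25a22: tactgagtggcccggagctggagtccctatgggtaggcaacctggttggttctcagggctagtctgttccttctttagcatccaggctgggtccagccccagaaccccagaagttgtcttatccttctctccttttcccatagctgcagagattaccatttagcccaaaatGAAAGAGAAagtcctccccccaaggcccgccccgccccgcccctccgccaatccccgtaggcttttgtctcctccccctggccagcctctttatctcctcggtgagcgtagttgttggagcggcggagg

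The other mitochondrial glutamate carrier, Slc25a18 (GC2), had another order. Slc25a18 stood at 54.1, 50.7 and 50.7 CPM with R848, 23.9, 18.7 and 20.6 with IFN-α and 92.6, 101 and 84.7 with R848+IFN-α. No 2 groups overlapped, and Slc25a18 was higher with R848+IFN-α than with R848 (log2 fold change 0.83 ± 0.12 SE, adjusted p = 1.41e-06) and than with IFN-α (log2 fold change 2.13 ± 0.14 SE, adjusted p = 9.69e-14). Slc25a18 is known as an astrocyte-enriched gene, and the summed astrocyte markers given above were also highest with R848+IFN-α; their part in this result was not tested. Mitoferrin-1, Slc25a37, which brings iron into mitochondria, had the same order. Slc25a37 stood at 56.2, 62.0 and 54.2 CPM with R848, 26.2, 19.1 and 22.8 with IFN-α and 87.7, 91.5 and 89.9 with R848+IFN-α. Its 3 groups were apart, with log2 fold changes of 1.98 ± 0.14 for R848+IFN-α against IFN-α and 0.64 ± 0.12 against R848, and the latter call was lost on library totals alone (adjusted p = 0.122). Mitoferrin-2, Slc25a28, passed the minimum only through the IFN-α group and is given by level. Slc25a28 stood at 3.17, 4.41 and 4.72 CPM with R848, 10.4, 12.3 and 13.6 with IFN-α and 8.18, 7.74 and 10.0 with R848+IFN-α.

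Among the other Slc25 members, Slc25a10 and Slc25a33 were highest with R848 alone. Slc25a10 stood at 80.4, 57.9 and 70.5 CPM with R848, 18.1, 18.0 and 13.9 with IFN-α and 24.2, 26.2 and 22.0 with R848+IFN-α. Slc25a10, the dicarboxylate carrier, was higher with R848 than with IFN-α (log2 fold change 2.07 ± 0.16 SE, adjusted p = 3.49e-12) and lower with R848+IFN-α than with R848 (log2 fold change -1.55 ± 0.15 SE, adjusted p = 5.91e-10). Its small difference between R848+IFN-α and IFN-α (0.52 ± 0.18) lost its call under 6 of 19 alternatives. Slc25a33 stood at 17.6, 15.1 and 20.0 CPM with R848, 6.55, 6.49 and 7.91 with IFN-α and 8.92, 7.74 and 8.61 with R848+IFN-α. Slc25a33, a pyrimidine nucleotide carrier, was lower with R848+IFN-α than with R848 (-1.05 ± 0.21), and it reached 10 CPM with R848 alone. Slc25a25, an ATP-magnesium and phosphate carrier, had means of 87.4, 47.5 and 105 CPM and was higher in both groups with R848 than with IFN-α (0.87 ± 0.14 and 1.15 ± 0.14).

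Slc25a45 was highest with IFN-α and lowest with R848+IFN-α. Slc25a45 stood at 14.4, 11.02 and 13.9 CPM with R848, 38.2, 22.0 and 26.6 with IFN-α and 6.32, 9.46 and 7.005 with R848+IFN-α. The groups did not overlap, and the log2 fold change for R848+IFN-α against IFN-α was -1.95 ± 0.23. The oxoglutarate carrier Slc25a11 and Slc25a16 were also lowest with R848+IFN-α, at means of 85.3, 72.5 and 50.5 CPM and 24.3, 21.3 and 13.4 CPM. Without R848+IFN-α replicate 3, 2 calls were lost, that of Slc25a45 against R848 (adjusted p = 0.0689) and that of Slc25a16 against IFN-α (adjusted p = 0.0573). Slc25a17 and Slc25a36 were higher with R848 than in both other groups (0.47 ± 0.14 and 0.44 ± 0.16 against IFN-α), and Slc25a32 was lower with R848+IFN-α than with R848 (-0.70 ± 0.21). Against IFN-α, the call of Slc25a17 was lost without R848 replicate 2 (adjusted p = 0.0523) and that of Slc25a36 under 6 of 19 alternatives (adjusted p up to 0.163). The call of Slc25a32 was lost without R848 replicate 3 (adjusted p = 0.0806) and without R848+IFN-α replicate 3 (adjusted p = 0.0654). In R848+IFN-α against IFN-α, Slc25a3 was higher (0.30 ± 0.11) and Slc25a39 lower (-0.32 ± 0.12), calls lost under 7 of 19 alternatives (adjusted p up to 0.952) and 5 of 19 alternatives (adjusted p up to 0.161). Slc25a1, Slc25a4, Slc25a20, Slc25a23, Slc25a24, Slc25a44, Slc25a46 and Slc25a51 did not pass the test in any comparison. Slc25a5 (ANT2), the ADP/ATP exchanger, had the highest level per length of the family at 150.1 CPM per kb and did not pass the test in any comparison, with means of 247, 222 and 229 CPM. It was called lower in R848+IFN-α against R848 with upper-quartile factors (log2 -0.25, adjusted p = 0.0203) and on library totals alone (log2 -0.50, adjusted p = 0.00113). Near-identical copies elsewhere in the genome could make the counts of Slc25a3, Slc25a4 and Slc25a5 uncertain, which was not examined here.

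**Figure D4:**
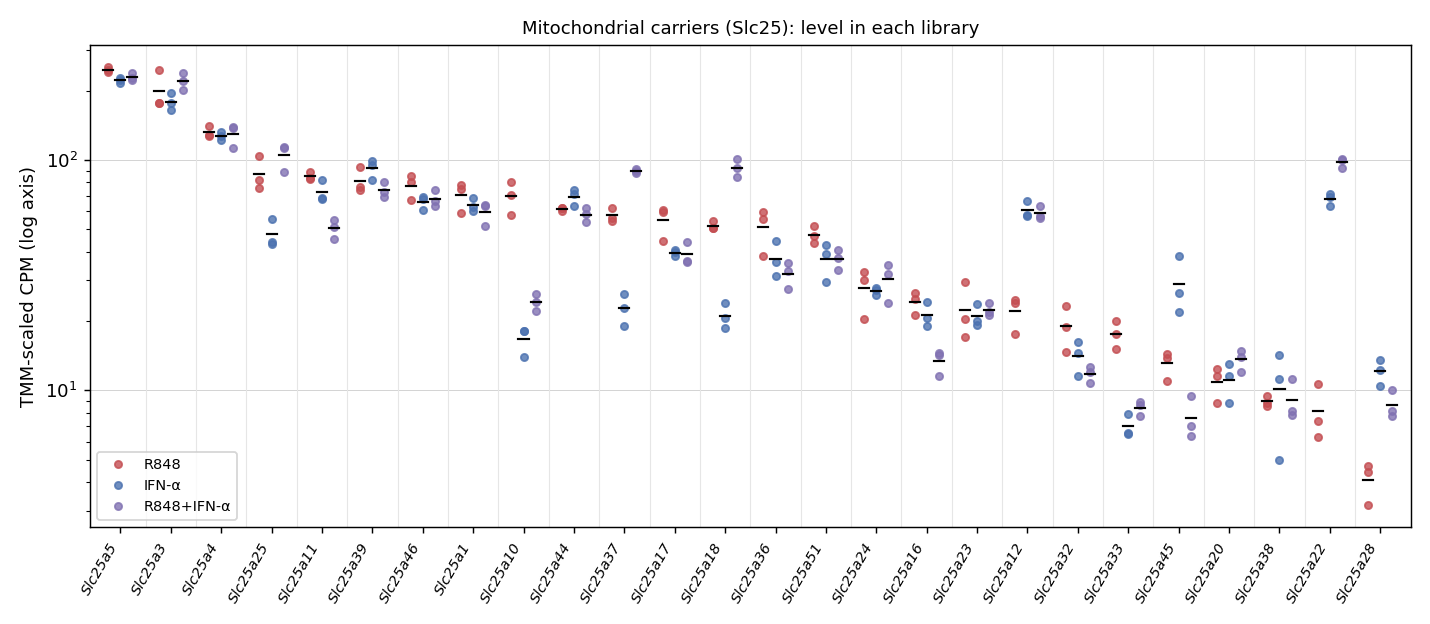
Level of each of the 26 Slc25 members in each library (TMM-scaled CPM, log axis), with black bars for group means of 3 libraries. The R848 points of Slc25a22 and Slc25a12 lie below both other groups, the R848 points of Slc25a10 lie above, and the R848+IFN-α points of Slc25a18 and Slc25a37 lie above both single agents.

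The 19 amino acid carriers were all counted, and 16 (84.2%) differed among the groups, beside 58.8%. With R848 against IFN-α, 7 were higher and 3 lower, with R848+IFN-α against R848, 3 were higher and 7 lower, and with R848+IFN-α against IFN-α, 6 were higher and 5 lower. Their median log2 fold changes were 0.14, -0.19 and -0.02.

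Slc7a7 stood at 86.1, 95.1 and 85.8 CPM with R848, 30.1, 31.7 and 36.4 with IFN-α and 55.0, 45.1 and 53.6 with R848+IFN-α. Slc7a6 stood at 51.0, 46.9 and 51.9 CPM with R848, 20.0, 19.1 and 19.3 with IFN-α and 15.2, 15.5 and 19.8 with R848+IFN-α. Slc7a7 (y+LAT1) and Slc7a6 (y+LAT2) exchange cationic for neutral amino acids, and in both the R848 libraries lay above the 6 others. Slc7a7 was higher with R848 than with IFN-α (log2 fold change 1.44 ± 0.13 SE, adjusted p = 7.85e-11) and lower with R848+IFN-α than with R848 (log2 fold change -0.79 ± 0.12 SE, adjusted p = 3.49e-06). Slc7a6 gave log2 fold change 1.36 ± 0.15 SE, adjusted p = 8.67e-09, and log2 fold change -1.53 ± 0.15 SE, adjusted p = 9.95e-10, in the same 2 comparisons. Against IFN-α, R848+IFN-α was higher for Slc7a7 (0.65 ± 0.13, adjusted p = 0.088 on library totals alone) and overlapped for Slc7a6 (-0.17 ± 0.17). Slc7a1 (CAT1), a cationic amino acid importer, had means of 53.5, 26.1 and 33.6 CPM and was likewise higher with R848 than in both other groups (1.03 ± 0.15 against IFN-α). Slc38a6, a member of the glutamine carrier family, followed them at 63.4, 33.5 and 25.8 CPM (0.92 ± 0.13 for R848 against IFN-α and -1.30 ± 0.13 for R848+IFN-α against R848). Its call for R848+IFN-α against IFN-α (-0.38 ± 0.14) was lost under 9 of 19 alternatives.

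The light chain Slc7a8 (LAT2), an exchanger of neutral amino acids, was highest with R848+IFN-α. Slc7a8 stood at 316, 279 and 251 CPM with R848, 196, 226 and 201 with IFN-α and 503, 381 and 389 with R848+IFN-α. No 2 groups overlapped, and Slc7a8 was higher with R848+IFN-α than with IFN-α (log2 fold change 1.03 ± 0.11 SE, adjusted p = 3.05e-09) and than with R848 (log2 fold change 0.59 ± 0.10 SE, adjusted p = 3.34e-05), the latter lost on library totals alone (adjusted p = 0.188). Slc7a5 (LAT1) had means of 18.0, 14.8 and 21.8 CPM and passed only in R848+IFN-α against IFN-α (0.59 ± 0.20), a call lost under 6 of 19 alternatives (adjusted p up to 0.274). Slc3a2 stood at 660.4, 598 and 592 CPM with R848, 451, 484 and 495 with IFN-α and 666, 584 and 641 with R848+IFN-α. Slc3a2 (4F2hc), the heavy chain of these exchangers, held rank 2 per length among all members at 178.6 CPM per kb, and its IFN-α libraries were below the 6 others (0.37 ± 0.08 with R848 and 0.40 ± 0.08 with R848+IFN-α, against IFN-α). On library totals alone the call with R848+IFN-α was lost (adjusted p = 0.587).

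The promoter of Slc7a8, at chr14:54781837-54782136, minus strand, is shown because it held both the interferon-stimulated response element core (bases -71 to -63) and the metal response element core (bases -52 to -46, on the other strand). Both are in capitals and they do not overlap. That of Slc38a9, at chr13:112660516-112660815, plus strand, is shown beside it because it held the interferon-stimulated core (bases -246 to -238, on the other strand) although that gene was lowest with R848+IFN-α, where Slc7a8 was highest.
Slc7a8: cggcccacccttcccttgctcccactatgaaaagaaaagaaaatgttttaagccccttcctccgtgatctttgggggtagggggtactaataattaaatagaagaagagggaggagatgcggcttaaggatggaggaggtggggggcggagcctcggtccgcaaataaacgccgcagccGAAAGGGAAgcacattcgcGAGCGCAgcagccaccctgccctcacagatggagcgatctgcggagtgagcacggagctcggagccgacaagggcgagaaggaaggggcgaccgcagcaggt
Slc38a9: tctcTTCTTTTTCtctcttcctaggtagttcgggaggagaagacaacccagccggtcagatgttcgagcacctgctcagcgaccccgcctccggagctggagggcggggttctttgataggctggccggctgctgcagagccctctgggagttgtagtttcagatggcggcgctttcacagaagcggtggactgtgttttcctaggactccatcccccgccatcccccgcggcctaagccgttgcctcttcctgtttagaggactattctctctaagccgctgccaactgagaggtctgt

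Slc38a9 stood at 9.79, 10.4 and 8.55 CPM with R848, 17.3, 18.7 and 16.1 with IFN-α and 2.97, 5.59 and 6.80 with R848+IFN-α. Slc38a9, the lysosomal arginine carrier and sensor, was lowest with R848+IFN-α and highest with IFN-α, with no overlap between groups. It was lower with R848+IFN-α than with IFN-α (log2 fold change -1.68 ± 0.25 SE, adjusted p = 2.70e-06). The smaller fall against R848 (log2 fold change -0.82 ± 0.27 SE, adjusted p = 0.0168) was lost without R848 replicate 2 (adjusted p = 0.0556) and without R848+IFN-α replicate 1 (adjusted p = 0.1). Of 13 tested genes of lysosomal amino acid sensing, a list that holds the Rag and Ragulator subunits, none was higher and 6 were lower in R848 against IFN-α. In R848+IFN-α, 2 were higher and 2 lower than with R848, and none was higher and 7 were lower than with IFN-α. The backgrounds for these 6 counts over all genes tested were 18.4% and 19.0%, 19.2% and 16.7%, and 18.5% and 14.7%.

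Of the other amino acid carriers, Slc38a3 (SNAT3), a glutamine carrier, stood at 56.5, 52.6 and 55.1 CPM with R848, 55.5, 59.8 and 56.0 with IFN-α and 80.3, 95.8 and 77.7 with R848+IFN-α. It was higher with R848+IFN-α than with either agent (0.62 ± 0.12 and 0.56 ± 0.12), and both calls were lost on library totals alone (adjusted p = 0.166 and 0.164). Slc38a3 is known from astrocytes. The summed astrocyte markers, though not each of them, were highest in the same group, and their part in this result was not tested. Slc6a6, the taurine carrier, had means of 108, 149 and 196 CPM and was higher with R848+IFN-α than with R848 (0.85 ± 0.18). Slc38a1 and Slc38a10 were highest with IFN-α, at 60.8, 79.5 and 62.0 CPM and 49.3, 65.8 and 44.7 CPM, and were lower in both groups with R848. The calls of Slc38a1 were lost under 3 of 19 alternatives (adjusted p up to 0.0845) with R848 and 3 of 19 alternatives (adjusted p up to 0.101) with R848+IFN-α, and that of Slc38a10 with R848 under 2 of 19 alternatives (adjusted p up to 0.0685). Slc1a4 was higher with R848+IFN-α than with IFN-α (0.37 ± 0.13) and Slc38a2 lower than with R848 (-0.26 ± 0.09), calls lost under 8 of 19 alternatives (adjusted p up to 0.787) and 7 of 19 alternatives (adjusted p up to 0.102). The creatine carrier Slc6a8 and Slc43a2 did not pass the test in any comparison.

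A list of amino acid stress genes held Atf4, the gene of the stress factor ATF4, and targets of that factor. Of the 14 tested, 4 were higher and 2 lower with R848 than with IFN-α. With R848+IFN-α, 1 was higher and 1 lower than with R848, and 5 were higher and 1 lower than with IFN-α. Atf4 itself was among these 5. The backgrounds are those given for the list of lysosomal sensing. Asns, asparagine synthetase, had means of 68.5, 47.9 and 68.8 CPM in the same order of groups. The amino acid response element TGATGNAA, searched on both strands, was present in 3.97% of all promoters and in 5 of the members' 127 (3.94%), which belong to Slc1a4, Slc50a1, Slc7a7 and Slc9a9. The NF-κB element GGANTTTCC was present in 1.25% of all promoters and in 2 of the members' (1.57%), those of Slc30a7 and Slc37a4.

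Slc16a10 and Slc16a9, of the Slc16 family, both differed among the groups. Slc16a10 stood at 165, 166 and 171 CPM with R848, 34.3, 37.5 and 29.8 with IFN-α and 62.1, 52.4 and 49.6 with R848+IFN-α. Slc16a10 (TAT1), which carries aromatic amino acids, had R848 libraries far above the 6 others and no overlap between any groups. It was higher with R848 than with IFN-α (log2 fold change 2.31 ± 0.12 SE, adjusted p = 2.01e-16) and lower with R848+IFN-α than with R848 (log2 fold change -1.62 ± 0.11 SE, adjusted p = 2.49e-13), and was higher with R848+IFN-α than with IFN-α (log2 fold change 0.69 ± 0.13 SE, adjusted p = 8.76e-05). Slc16a9 stood at 12.7, 15.1 and 12.7 CPM with R848, 11.9, 15.1 and 11.7 with IFN-α and 32.0, 29.2 and 36.6 with R848+IFN-α. Slc16a9 (MCT9) had single-agent groups that overlapped and R848+IFN-α libraries above both (1.29 ± 0.17 against R848 and 1.35 ± 0.18 against IFN-α).

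The 14 carriers of protons and inorganic ions were all counted and 11 (78.6%) differed among the groups, beside 58.8%. With R848 against IFN-α, 7 were higher and 4 lower, and with R848+IFN-α against IFN-α, 6 were higher and 3 lower. With R848+IFN-α against R848, 3 were higher and 2 lower. Their median log2 fold changes were 0.43, -0.05 and 0.05.

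Slc12a9 stood at 11.8, 9.76 and 7.66 CPM with R848, 54.4, 63.8 and 54.4 with IFN-α and 25.7, 30.5 and 30.6 with R848+IFN-α. Slc12a9 belongs to the cation-chloride cotransporter family, and its 3 groups did not overlap. It was lower with R848 than with IFN-α (log2 fold change -2.55 ± 0.17 SE, adjusted p = 1.19e-13), and R848+IFN-α lay between, higher than R848 (log2 fold change 1.57 ± 0.18 SE, adjusted p = 3.08e-08) and lower than IFN-α (log2 fold change -0.98 ± 0.15 SE, adjusted p = 2.70e-06). The same order held for Slc8a1 (NCX1), the sodium-calcium exchanger. Slc8a1 stood at 44.4, 49.8 and 57.5 CPM with R848, 154, 130.5 and 137 with IFN-α and 72.5, 82.1 and 71.4 with R848+IFN-α. Its log2 fold changes were -1.47 ± 0.11 for R848 against IFN-α, -0.90 ± 0.11 for R848+IFN-α against IFN-α and 0.57 ± 0.12 for R848+IFN-α against R848, the last of which was lost on library totals alone (adjusted p = 0.307). Slc9a9, an endosomal sodium-proton exchanger, had means of 17.6, 35.9 and 23.2 CPM and was lower in both groups with R848 than with IFN-α.

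Other ion carriers went the other way. Slc4a7 stood at 121, 159 and 174 CPM with R848, 48.6, 55.9 and 59.5 with IFN-α and 115, 111 and 119.7 with R848+IFN-α. Slc4a7 (NBCn1), which brings sodium and bicarbonate into the cell, had IFN-α libraries below the 6 others (log2 fold change 1.46 ± 0.12 SE, adjusted p = 2.27e-11 with R848, and log2 fold change 1.08 ± 0.12 SE, adjusted p = 3.28e-08 with R848+IFN-α). It was lower with R848+IFN-α than with R848 (-0.39 ± 0.11), a call lost without R848 replicate 3 (adjusted p = 0.0862). Slc12a4 (KCC1), a potassium-chloride cotransporter, had means of 62.8, 32.0 and 69.1 CPM and the anion exchanger Slc4a2 (AE2) of 83.2, 43.1 and 78.1 CPM. For both, the groups with R848 were higher than IFN-α, with log2 fold changes of 0.86 to 1.12. The R848 libraries of Slc12a4 spread widely, at 85.5, 49.1 and 53.7 CPM. Slc9a8, a Golgi sodium-proton exchanger, and Slc24a5 were also higher in both groups with R848 (0.62 ± 0.16 and 1.18 ± 0.22 for R848 against IFN-α). The call of Slc24a5 for R848+IFN-α against IFN-α was lost under 3 of 19 alternatives (adjusted p up to 0.129). The sulphate carrier Slc26a2 was higher with R848 than in both other groups, at 28.9, 15.8 and 14.3 CPM. Slc12a2 and Slc9a7 did not pass the test in any comparison.

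The endolysosomal carriers split in direction. Of 10 listed, 9 are members and the other, Slc36a4, was just below the minimum, and Slc46a3 is given by level. Over the 8 counted members, 2 were higher and 3 lower with R848 than with IFN-α, 2 were higher and 3 lower with R848+IFN-α than with R848, and 1 was higher and 5 lower with R848+IFN-α than with IFN-α. With so few members, these counts were not read against the background of 16.6% to 23.4%.

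Slc15a3 stood at 825, 649.6 and 726 CPM with R848, 682, 602 and 682 with IFN-α and 1640.2, 1533 and 1571 with R848+IFN-α. Slc15a3 (PHT2), at chr19:10839727-10859362, carries histidine and di- and tripeptides out of endolysosomes, and had the highest level per length of all 120 members, at 288 CPM per kb in the R848+IFN-α group. The single-agent groups overlapped (log2 fold change 0.16 ± 0.09 SE, adjusted p = 0.153), and every R848+IFN-α library was above them. It was higher with R848+IFN-α than with R848 (log2 fold change 1.11 ± 0.09 SE, adjusted p = 8.41e-12) and than with IFN-α (log2 fold change 1.27 ± 0.09 SE, adjusted p = 5.99e-13). Its relative Slc15a4 (PHT1) did not share that order. Slc15a4 stood at 49.3, 39.0 and 38.6 CPM with R848, 45.5, 47.9 and 55.1 with IFN-α and 31.2, 32.7 and 36.2 with R848+IFN-α. Slc15a4 was lower with R848+IFN-α than with IFN-α (log2 fold change -0.56 ± 0.14 SE, adjusted p = 0.00257). Slc15a2 (PEPT2), the peptide importer of the plasma membrane, had means of 9.24, 12.04 and 18.1 CPM and was higher with R848+IFN-α than with R848 (0.92 ± 0.24), a call lost on library totals alone (adjusted p = 0.0678).

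Slc48a1 stood at 464, 369 and 361 CPM with R848, 126, 125 and 144 with IFN-α and 141, 132 and 115 with R848+IFN-α. Slc48a1 (HRG1), at chr15:97778520-97792692, moves haem out of phagolysosomes, and its R848 libraries lay above the 6 others. It was higher with R848 than with IFN-α (log2 fold change 1.59 ± 0.11 SE, adjusted p = 1.18e-13) and lower with R848+IFN-α than with R848 (log2 fold change -1.63 ± 0.11 SE, adjusted p = 9.59e-14). The R848+IFN-α and IFN-α groups overlapped (log2 fold change -0.03 ± 0.11 SE, adjusted p = 0.86). At 145 CPM per kb with R848, it held rank 4 per length.

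Slc29a3 stood at 10.9, 6.93 and 9.14 CPM with R848, 60.9, 54.1 and 56.3 with IFN-α and 11.9, 18.9 and 16.6 with R848+IFN-α. Slc29a3 (ENT3), the nucleoside carrier of lysosomes, had IFN-α libraries above the 6 others. It was lower with R848 than with IFN-α (log2 fold change -2.65 ± 0.18 SE, adjusted p = 2.01e-13) and lower with R848+IFN-α than with IFN-α (log2 fold change -1.85 ± 0.17 SE, adjusted p = 2.12e-10). Its rise against R848 (log2 fold change 0.80 ± 0.21 SE, adjusted p = 0.00339) was lost on library totals alone (adjusted p = 0.106). Slc17a5 stood at 7.78, 9.13 and 5.90 CPM with R848, 20.8, 20.5 and 17.1 with IFN-α and 10.0, 6.02 and 7.005 with R848+IFN-α. Slc17a5 (sialin), which exports sialic acid from lysosomes, was likewise lower in both groups with R848 than with IFN-α (-1.35 ± 0.23 and -1.34 ± 0.23). It reached 10 CPM with IFN-α alone. Slc36a1 (PAT1) had means of 27.1, 31.6 and 20.5 CPM and was lower with R848+IFN-α than with IFN-α (-0.62 ± 0.17). Slc38a7, a lysosomal glutamine carrier, had means of 53.9, 41.5 and 34.8 CPM and was lower with R848+IFN-α than with R848 (-0.63 ± 0.15). Its call for R848 against IFN-α (0.38 ± 0.15, adjusted p = 0.0482) was lost under 12 of 19 alternatives.

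**Figure D5:**
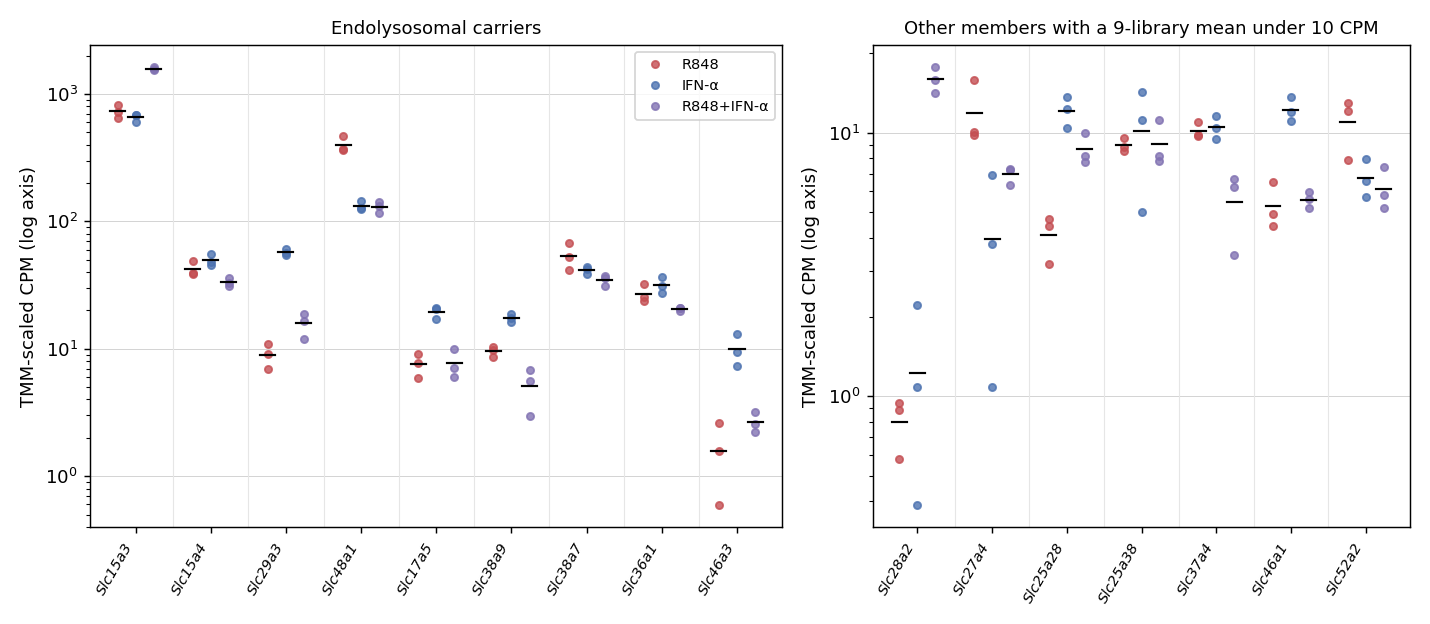
Level in each library (TMM-scaled CPM, log axis) of the 9 endolysosomal members, left, and of the 7 other members whose mean over all 9 libraries is under 10 CPM, right, with black bars for group means of 3 libraries. Slc15a3 is highest with R848+IFN-α, Slc48a1 with R848 and Slc29a3 with IFN-α, and on the right the R848+IFN-α points of Slc28a2 lie at 14.1 to 17.8 CPM while its other points lie at 0.385 to 2.22 CPM.

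The nucleoside carriers differed in the group in which they were highest. Slc29a1 stood at 53.0, 42.8 and 46.6 CPM with R848, 25.1, 28.5 and 32.0 with IFN-α and 19.7, 18.5 and 24.0 with R848+IFN-α. Slc29a1 (ENT1), the equilibrative carrier of the plasma membrane, was higher with R848 than with IFN-α (0.73 ± 0.15) and lower with R848+IFN-α than with R848 (log2 fold change -1.16 ± 0.15 SE, adjusted p = 2.90e-07). Its call for R848+IFN-α against IFN-α (-0.43 ± 0.16) was lost under 6 of 19 alternatives. Slc28a2 stood at 0.576, 0.945 and 0.884 CPM with R848, 0.385, 1.08 and 2.22 with IFN-α and 14.1, 15.9 and 17.8 with R848+IFN-α. Slc28a2 (CNT2), at chr2:122426477-122461137, is a sodium-coupled nucleoside importer that entered the set only through R848+IFN-α, so these levels are a description. They rest on 8, 11 and 164 counts over the 3 libraries of the R848, IFN-α and R848+IFN-α groups.

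The carriers of phosphate and sugar phosphates, grouped by family number, had 6 members, of which 5 were counted and 4 differed. The sialic acid carrier Slc17a5, given above, falls in this group by its family and is among those that differed. Slc37a2 stood at 32.8, 38.7 and 31.5 CPM with R848, 91.7, 87.2 and 82.6 with IFN-α and 33.1, 26.2 and 26.8 with R848+IFN-α. Slc37a2, a glucose-6-phosphate carrier of the endoplasmic reticulum, had IFN-α libraries above the 6 others (log2 fold change -1.34 ± 0.13 SE, adjusted p = 4.91e-10 for R848 and log2 fold change -1.61 ± 0.13 SE, adjusted p = 3.60e-11 for R848+IFN-α, against IFN-α). Slc37a3 stood at 7.20, 9.45 and 10.3 CPM with R848, 13.9, 13.7 and 17.1 with IFN-α and 15.6, 16.8 and 22.4 with R848+IFN-α. Slc37a3, a relative of Slc37a2, was lowest with R848, and R848+IFN-α was higher than R848 (1.06 ± 0.21). Its call for R848 against IFN-α (-0.74 ± 0.23) was lost without IFN-α replicate 3 (adjusted p = 0.0719). Slc20a1 (PiT1), a phosphate importer, had means of 54.8, 40.6 and 55.3 CPM and was higher in both groups with R848 than with IFN-α (0.43 ± 0.12 and 0.45 ± 0.13, the latter lost on library totals alone with an adjusted p of 0.482), while Slc20a2 did not pass in any comparison.

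Of 3 sugar carriers, 2 differed, and Slc50a1 did not pass in any comparison. Slc45a3 stood at 13.2, 13.5 and 14.1 CPM with R848, 24.3, 26.0 and 19.9 with IFN-α and 52.0, 48.1 and 60.8 with R848+IFN-α. Slc45a3 had no overlap between groups and was highest with R848+IFN-α (log2 fold change 1.99 ± 0.16 SE, adjusted p = 9.58e-12 against R848, and log2 fold change 1.22 ± 0.15 SE, adjusted p = 9.90e-08 against IFN-α). It was lower with R848 than with IFN-α (-0.77 ± 0.18). Slc5a3, the myo-inositol importer, had means of 119, 97.8 and 131 CPM and was higher with R848+IFN-α than with IFN-α (0.42 ± 0.12), a call lost on library totals alone (adjusted p = 0.576) and without IFN-α replicate 3 (adjusted p = 0.0607).

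Among 5 members for lipids, choline and acyl-CoA, 4 were counted and all 4 differed. Slc44a1 stood at 255, 245 and 259 CPM with R848, 83.6, 118 and 114 with IFN-α and 218, 193 and 239 with R848+IFN-α. Slc44a1, a choline carrier, had IFN-α libraries below the 6 others (log2 fold change 1.26 ± 0.11 SE, adjusted p = 6.44e-11 for R848 and log2 fold change 1.04 ± 0.11 SE, adjusted p = 6.48e-09 for R848+IFN-α, against IFN-α). Its relative Slc44a2 had means of 24.0, 41.2 and 37.6 CPM and was lowest with R848 (-0.77 ± 0.15 against IFN-α). Its call for R848+IFN-α against R848 (0.65 ± 0.15) was lost on library totals alone (adjusted p = 0.187). Slc27a1 (FATP1), a fatty acid carrier, was lowest with R848+IFN-α, at 32.0, 43.8 and 34.2 CPM beside 54.1, 53.5 and 52.8 with R848 and 69.0, 56.9 and 56.0 with IFN-α. Slc33a1, the acetyl-CoA carrier of the endoplasmic reticulum, had means of 29.997, 39.7 and 24.6 CPM and was highest with IFN-α, and its call for R848 against IFN-α was lost under 8 of 19 alternatives (adjusted p up to 0.131).

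The nucleotide sugar carriers of the Golgi apparatus had 4 counted members. With R848, 3 were higher than with IFN-α and the same number were lower with R848+IFN-α than with R848, and none passed in R848+IFN-α against IFN-α. Slc35a4 stood at 103, 85.3 and 88.4 CPM with R848, 65.5, 68.5 and 57.0 with IFN-α and 62.5, 48.6 and 65.8 with R848+IFN-α, and its R848 libraries lay above the 6 others (0.54 ± 0.12 against IFN-α). The UDP-galactose carrier Slc35a2 and the UDP-N-acetylglucosamine carrier Slc35a3 had means of 27.0, 19.5 and 19.5 CPM and 85.8, 67.8 and 61.3 CPM. For R848 against IFN-α, their calls were lost under 5 and 6 of 19 alternatives, and that of Slc35a2 for R848+IFN-α against R848 under 6. The CMP-sialic acid carrier Slc35a1 did not pass in any comparison.

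Of 6 carriers of organic ions and amines, 3 differed. Slc22a4, the ergothioneine carrier, had means of 25.3, 15.3 and 18.5 CPM and was higher with R848 than with IFN-α (0.72 ± 0.20). Slc10a7 had means of 17.0, 29.96 and 21.9 CPM and was lower with R848 than with IFN-α (-0.82 ± 0.16), and its call for R848+IFN-α against IFN-α was lost under 4 of 19 alternatives. Slc10a3, which reached 10 CPM with R848 alone, had means of 13.4, 8.71 and 7.75 CPM, and its calls for R848 against IFN-α and for R848+IFN-α against R848 were lost under 8 and 2 of 19 alternatives. Slc22a5, Slc22a17 and Slc22a23 did not pass in any comparison. Slc23a2 (SVCT2), the vitamin C importer, was the only counted vitamin carrier. Slc23a2 stood at 290.0, 279.9 and 307 CPM with R848, 258, 273 and 260.2 with IFN-α and 362, 301 and 310.0 with R848+IFN-α. It passed in R848+IFN-α against IFN-α (0.30 ± 0.09), a call lost with upper-quartile factors (adjusted p = 0.0579) and without R848+IFN-α replicate 1 (adjusted p = 0.0886). On library totals alone the difference changed sign, with no call. The 3 members that are named after a carrier but are not carriers, Slc4a1ap, Slc7a6os and the scaffold protein Slc9a3r1, did not pass the test in any comparison. The urea carrier Slc14a1 did not either.

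Beyond Slc28a2 and Slc25a28, the other 6 members with a 9-library mean under 10 CPM are given as levels only. The folate carrier Slc46a1 stood at 4.90, 4.41 and 6.49 CPM with R848, 11.9, 13.7 and 11.1 with IFN-α and 5.95, 5.16 and 5.604 with R848+IFN-α. Slc46a3 stood at 2.59, 1.57 and 0.590 CPM, 7.32, 13.0 and 9.50 and 2.23, 2.58 and 3.20 in the same order. Both entered the set only through the IFN-α group. That their IFN-α libraries were the highest is therefore a description. The fatty acid carrier Slc27a4 had means of 11.9, 3.94 and 6.94 CPM, the riboflavin carrier Slc52a2 of 10.98, 6.73 and 6.13 CPM, the glycine carrier Slc25a38 of 8.96, 10.1 and 9.06 CPM and the glucose-6-phosphate carrier Slc37a4 of 10.2, 10.5 and 5.44 CPM, in the order R848, IFN-α and R848+IFN-α.

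For the comparison with both single agents, a gene counted where both differences had the same sign and the larger of the 2 p-values, adjusted over all genes tested, was under 0.05. By that rule R848+IFN-α was higher for 9 members (8.04%), beside 7.33% of all genes tested and 9.56% of those with a mean of 10 CPM or more. These were Slc15a3, Slc16a9, Slc25a18, Slc25a22, Slc25a37, Slc30a4, Slc38a3, Slc45a3 and Slc7a8. It was lower than both for 5 members (4.46%), beside 2.82% and 3.64%, namely Slc25a11, Slc25a16, Slc25a45, Slc27a1 and Slc38a9. Both shares were near the background. Slc29a1 and Slc38a6 were called lower in each comparison on its own but not by the joint rule. Of 18 alternatives that gave the joint test, Slc38a9 lost its place in 11, Slc25a45 in 5, Slc25a16 in 3, Slc27a1 in 2 and Slc25a11 in 0. On library totals alone, 5 of the 9 remained above both, and the number below both was 24, which included the 5. Without R848 replicate 1 the number above both was 14, and without R848+IFN-α replicate 1 or replicate 3 the number below both was 2. Among all 120 members, the highest group mean was with R848 for 50, with IFN-α for 36 and with R848+IFN-α for 34, a description that the choice by highest group touches.

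The transporters that do not carry an Slc symbol of this form gave the following counts. Of 16 tested from a list of 21, 3 were higher and 1 lower with R848 than with IFN-α, 3 were higher and 4 lower with R848+IFN-α than with R848, and 3 were higher and 4 lower with R848+IFN-α than with IFN-α, each comparison counted on its own. Of 13 tested carriers that had been left out by name, 9 were higher and none lower with R848 than with IFN-α, 6 were higher and 4 lower with R848+IFN-α than with R848, and 10 were higher and 1 lower with R848+IFN-α than with IFN-α. Beside both lists, the backgrounds over all genes tested were 18.4% higher and 19.0% lower in R848 against IFN-α, 19.2% and 16.7% in R848+IFN-α against R848, and 18.5% and 14.7% in R848+IFN-α against IFN-α.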

How the data were processed

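The authors deposited whole-number read counts per gene for each library (unstranded, forward and reverse strand), made, per the submitters' processing notes, with CASAVA 1.8.2, Trimmomatic 0.33, STAR 2.5.1 and DESeq2 on mm10. Which annotation was counted is not given in the sources used. Forward-strand counts were 1.09% to 1.50%, so reverse-strand counts were used; rows that name no gene (70.7% to 74.3% of read pairs) were left out. Rn45s held 13.3% to 26.1% of gene counts.

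From these counts, CPM and fold changes were computed in R 4.3.3 with edgeR 4.0.16 and limma 3.58.1 (filterByExpr, minimum count 10; TMM factors; robust quasi-likelihood F test on all 9 libraries; Benjamini-Hochberg over 11002 genes, threshold 0.05). Each SE was derived from the fold change and its F statistic and is approximate. The script was tested on simulated data. Lengths and positions are those of GENCODE release M21, promoters those of RefSeq, both on GRCm38.

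The members, lists and rules were chosen with earlier results of these data known. Members were named by the size of their called changes with no overlap, by role, by level per length and by the endolysosomal list. Members above or below both single agents, and others named in passing to account for a role, were added after their values were seen. DESeq2 1.42.0, other scalings and filters, unstranded counts, fits without Rn45s or each library, and a replicate block were alternatives. Some members are counted but not reported here by name.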

Additional observations from a re-analysis of the deposited data

How the results depend on the processing

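Over 19 alternatives, the 336 fold changes of the 112 counted members were recomputed. The side of the threshold, and the direction of values called in either fit, were kept by 250 of 336 on library totals alone. Up to 334 kept them, with size factors of the RLE kind or without Rn45s. A change of sign in a value called in neither fit was not counted. With DESeq2 313 were kept and 23 calls were lost. With upper-quartile factors, 46 members were lower with R848+IFN-α than with R848 and 10 were below both single agents. On library totals alone, R848+IFN-α against R848 gave 11 higher and 65 lower, R848+IFN-α against IFN-α gave 22 higher and 43 lower, and 5 members were above and 24 below both single agents. The same scaling reversed the sign of 3 called values, those of Slc23a2 (log2 -0.0088) and Slc25a3 (log2 -0.0121) in R848+IFN-α against IFN-α and of Slc30a7 in R848+IFN-α against R848 (log2 -0.0023). Of the values not called with TMM factors, 4 changed sign and were called on library totals alone. All were in R848+IFN-α against R848, for Slc20a1 (log2 -0.37), Slc38a1 (log2 -0.36), Slc3a2 (log2 -0.35) and Slc9a3r1 (log2 -0.34). With the combined libraries holding the lowest TMM factors, that scaling lowers all their values by construction. DESeq2 gave 2 members below both single agents. Leaving out each library in turn gave 9 to 14 members above both single agents and 2 to 4 below both. With the replicate block, 42 members were higher and 22 lower in R848 against IFN-α, 22 and 31 in R848+IFN-α against R848, and 37 and 20 in R848+IFN-α against IFN-α. The replicate block lost 1 call (Slc38a6 in R848+IFN-α against IFN-α) and added 5. Deviations of same-numbered libraries correlated at -0.153 to 0.0953, so the numbers were not taken to pair the samples. Members near 10 CPM rest on few counts per library, which limits what can be detected for them.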
